A study of Mus musculus with 8 samples.

Results

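Cx3cr1 and 8 other chemokine receptor genes (Ccr1, Ccr2, Ccr6, Ccr7, Ccr9, Cxcr2, Cxcr3 and Cxcr4) were examined in dendritic cells of the mouse. They were taken by name, with earlier results of these data known. Each was represented by 1 probe set whose annotation names that gene alone. Thus 9 of 19938 genes with such a probe set are described. The arrays were Affymetrix mogene 1.0 ST, on which a probe set gathers probes along a transcript. Myeloid dendritic cells sorted from bone marrow (4 arrays) were set against classical dendritic cells sorted from spleen (4 arrays), with 1 array of each kind from each of 4 mice; the bone marrow samples are titled dendritic cells, while their source field says only myeloid cells. All mice were 8 weeks old and of the genotype CX3CR1-gfp/+, in which 1 Cx3cr1 allele is replaced by a green fluorescent protein gene, and none of the 8 samples came from a mouse with both alleles intact.

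Chemokine receptors are G protein-coupled receptors that steer a cell toward the source of a secreted chemokine. On dendritic cells and their precursors they govern release from the marrow, entry into tissue and, through Ccr7, travel to the T cell areas of lymphoid organs. Different leukocytes carry different sets, so the same receptors also serve as markers of monocytes, neutrophils, B cells and T cells.

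Of the 9 receptors, 4 were higher in bone marrow (Cx3cr1, Ccr1, Ccr2 and Cxcr2), 3 were lower (Ccr6, Ccr7 and Ccr9), and Cxcr3 and Cxcr4 did not pass the threshold. Cxcr4 passed, as higher, when the fit took the mouse as a block (adjusted p = 0.0145). The call was an adjusted p below 0.05 in limma, with the Benjamini-Hochberg adjustment over all genes. By the same rule 18.5% of all genes were called, 9.26% higher and 9.2% lower. As the 9 receptors were chosen with earlier results known, the shares of all genes give scale and are not a test. At 2-fold or more as well, 3.52% of all genes were called, and all 7 called receptors lay past that fold. The median log2 fold change was 0.36 over the 9 receptors and -0.01 over all genes. In the 7 called receptors the 4 bone marrow arrays and the 4 spleen arrays did not overlap, as was the case for 20.6% of all genes (10.4% with bone marrow higher, 10.2% with it lower).

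**Figure D1:**
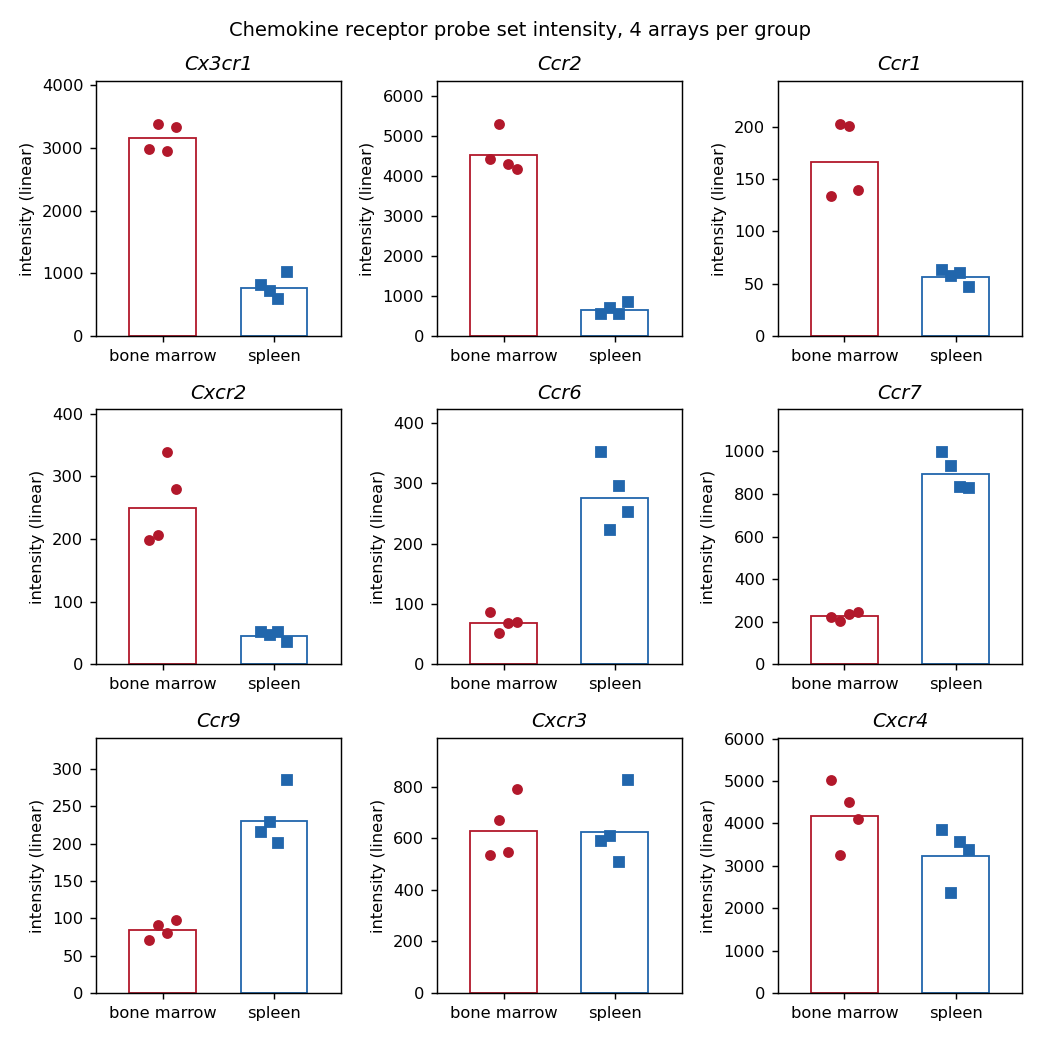
Intensity of the 9 receptors on every array (linear scale, each panel with its own axis from 0), with bone marrow as circles, spleen as squares and the geometric mean of 4 arrays as an open bar. The groups are apart in all panels but those of Cxcr3 and Cxcr4.

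Transcription starts from RefSeq (build GRCm38.p6) matched 8 of the 9 receptors, all but Ccr7, and the 250 bases before the start are shown for 4 of them. Cx3cr1, Ccr1 and Ccr2 were higher in bone marrow and lie on chromosome 9, and Ccr9, on the same chromosome, was lower. The windows are chr9:120068297-120068546 (minus strand), chr9:123968693-123968942 (minus strand), chr9:124101933-124102182 (plus strand) and chr9:123766961-123767210 (plus strand), each written 5′ to 3′ along its gene. Capitals mark a match on either strand to a motif that was searched for.
Cx3cr1: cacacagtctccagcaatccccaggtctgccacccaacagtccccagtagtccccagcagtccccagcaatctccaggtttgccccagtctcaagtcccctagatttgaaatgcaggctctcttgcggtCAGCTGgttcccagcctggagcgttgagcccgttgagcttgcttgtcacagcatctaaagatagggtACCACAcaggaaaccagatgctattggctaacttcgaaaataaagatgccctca
Ccr1: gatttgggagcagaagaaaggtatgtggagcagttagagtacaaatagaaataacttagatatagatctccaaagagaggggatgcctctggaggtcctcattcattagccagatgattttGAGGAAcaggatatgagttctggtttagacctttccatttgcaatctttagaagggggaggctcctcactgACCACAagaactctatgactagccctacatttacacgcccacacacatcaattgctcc
Ccr2: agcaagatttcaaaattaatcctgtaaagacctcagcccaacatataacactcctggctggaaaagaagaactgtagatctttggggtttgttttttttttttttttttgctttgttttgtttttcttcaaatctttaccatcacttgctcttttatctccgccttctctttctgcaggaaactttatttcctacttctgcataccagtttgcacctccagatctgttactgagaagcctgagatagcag
Ccr9: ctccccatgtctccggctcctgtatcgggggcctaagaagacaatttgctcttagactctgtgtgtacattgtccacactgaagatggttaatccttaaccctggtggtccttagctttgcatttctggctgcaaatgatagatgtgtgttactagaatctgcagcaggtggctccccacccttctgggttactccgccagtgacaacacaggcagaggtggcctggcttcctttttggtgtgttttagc
In the Cx3cr1 window the capitals are the E-box CAGCTG, which reads the same on both strands, and the reverse complement of the Runx core TGTGGT. In the Ccr1 window they are the PU.1-type core GAGGAA and the Runx core on the other strand. The windows of Ccr2 and Ccr9 held none of the motifs searched for. Of the 8 receptors, 4 had the PU.1-type core, 3 the Runx core and 1 the E-box CAGCTG. No other form of the E-box was searched for. Among those not printed, Cxcr2 (higher), Ccr6 (lower) and Cxcr3 (not past the threshold) had the PU.1-type core, and Cxcr3 also the Runx core. Ccr6 had 2 starts, and only the window of the first held the PU.1-type core. A receptor was counted where any of its windows held a match, whereas the following shares are per window. Among 32851 RefSeq windows of this length, 13% held the E-box CAGCTG, 14% the Runx core and 23.3% the PU.1-type core. An ETS-IRF composite (GGAA and GAAA with any NN between, in 2.3% of windows) and a C/EBP pair of half-sites (TTGCNNAA, in 9.56%) were in none of the 8 receptors' windows. No 2 matches overlapped in the printed windows. These are matches of letters only, and no array here measures binding or which start is used.

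Cx3cr1 encodes the receptor of fractalkine (Cx3cl1), which holds monocytes and macrophages at surfaces that display it. It reached 2989, 3391, 2956 and 3340 in bone marrow of mice 1 to 4, against 812, 713, 588 and 1023 in their spleens. These and all following values are linear intensities, given in the order of the mice. Every bone marrow array lay at least 2.89-fold above every spleen array. The log2 fold change was 2.04 ± 0.14 (moderated standard error, SE, n = 4 arrays per tissue, limma adjusted p = 3.3e-07), with a 95% interval from 1.74 to 2.34. Within a mouse the bone marrow sample exceeded the spleen sample by 3.26-fold to 5.03-fold. The bone marrow arrays were close to each other, the highest 1.15 times the lowest, whereas the spleen arrays spread over 1.74 times. In all 8 samples 1 allele carries the reporter, so the values describe heterozygous cells. The labels do not state the sort markers or whether the reporter's fluorescence was a gate, and how much of the reporter allele's transcript the probe set reads was not tested.

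Ccr2, the receptor of Ccl2 and Ccl7 through which monocytes are released into blood, differed most of the 9. It stood at 4420, 5307, 4290 and 4169 in bone marrow, against 549, 700, 558 and 837 in spleen. The lowest bone marrow array was 4.98 times the highest spleen array. Within mice 1, 2 and 3 the ratio lay between 7.59 and 8.05, and in mouse 4, which had the highest spleen value, it was 4.98. Its fitted log2 difference was 2.80 ± 0.13 (SE, 4 arrays per tissue, limma adjusted p = 1.4e-08).

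Ccr1, a receptor of Ccl3, Ccl5, Ccl6 and Ccl9 carried by monocytes and neutrophils, was higher in bone marrow as well. Its intensity was 134, 203, 201 and 140 in bone marrow, against 63.3, 57.6, 60.2 and 46.4 in spleen. Bone marrow replicates 2 and 3 were the high ones, and even the low ones lay 2.12-fold above the highest spleen array. The log2 fold change was 1.56 ± 0.15 (SE, 4 arrays per tissue, limma adjusted p = 6.5e-06). No background level is given for the arrays, and the ratio of a gene this dim was not corrected for one.

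Cxcr2, the receptor of Cxcl1 and Cxcl2 that draws neutrophils out of the marrow, stood at 199, 206, 339 and 280 in bone marrow, against 51.0, 46.4, 52.1 and 35.6 in spleen. The ratio within a mouse ran from 3.90 to 7.86, the widest spread among the called receptors. On the log2 scale the difference was 2.45 ± 0.17 (SE, 4 arrays per tissue, limma adjusted p = 3.4e-07). On a log2(intensity + 50) scale, which shrinks differences of dim genes, it was 1.65 and still passed.

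Markers of other myeloid cells moved with these 4 receptors. Of 12 neutrophil markers 12 were higher, and their summed intensity was 23490 to 31429 in bone marrow, against 2103 to 2479 in spleen. It was highest in bone marrow replicate 3, where Cxcr2 was also highest, and lowest in replicate 2, whereas Cxcr2 was lowest in replicate 1. Of 10 macrophage markers 9 were higher (sums of 23044 to 32949 in bone marrow, 3632 to 4301 in spleen). Of 7 measured classical monocyte markers 5 were higher and 1 lower (16118 to 18056 in bone marrow, 9079 to 10314 in spleen), the lower call being lost in 9 of 16 checks. Of 10 non-classical monocyte markers 7 were higher and none lower (15192 to 22582 in bone marrow, 10691 to 12575 in spleen). The part these cells had in the 4 receptors' levels was not tested. In sorted populations such as these, fewer cells of a type and less RNA per cell cannot be told apart. Of 13 dendritic cell markers none was higher and 4 were lower in bone marrow, with sums of 63166 to 67219 in bone marrow and 66421 to 71652 in spleen. The class II genes H2-Ab1, H2-Aa and Cd74 made up 55.1 to 62.9% of each sum, and without them it was 23943 to 26391 in bone marrow, below the 27117 to 31925 in spleen in 4 of 4 mice. The 4 lower ones were Flt3, the receptor for the dendritic cell growth factor (1615 to 2407 in bone marrow, 3421 to 4433 in spleen), the transcription factor Zbtb46 (182 to 238 in bone marrow, 425 to 586 in spleen), the integrin Itgax and Dpp4.

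Ccr7 is the receptor of Ccl19 and Ccl21 that brings maturing dendritic cells into T cell zones. It stood at 223, 206, 237 and 246 in bone marrow, against 997, 931, 833 and 827 in spleen. Both groups were tight, the highest array being 1.19 times the lowest in bone marrow and 1.21 times in spleen, and the spleen arrays began 3.36-fold above the highest bone marrow array. The fit gave a log2 fold change of -1.97 ± 0.09 (SE, 4 arrays per tissue, limma adjusted p = 9.5e-09), the smallest SE among the 9.

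Ccr6, the receptor of Ccl20 that places dendritic cells and B cells in mucosal lymphoid tissue, stood at 86.6, 52.2, 68.2 and 70.2 in bone marrow, against 352, 223, 296 and 252 in spleen. It was lower in bone marrow in all 4 mice by a similar amount, with log2 differences within a mouse from -2.12 to -1.84. The fitted log2 fold change was -2.02 ± 0.16 (SE, 4 arrays per tissue, limma adjusted p = 1.2e-06). The bone marrow signal was dim, and on a log2(intensity + 50) scale the difference was -1.46 and still passed. Mouse 1 had the highest and mouse 2 the lowest Ccr6 value in both tissues.

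Ccr9, the receptor of Ccl25 found on gut-homing lymphocytes and on plasmacytoid dendritic cells, stood at 70.7, 90.7, 80.5 and 97.5 in bone marrow, against 216, 229, 201 and 285 in spleen. The groups were 2.06-fold apart at their nearest arrays. Its log2 difference was -1.45 ± 0.12 (SE, 4 arrays per tissue, limma adjusted p = 2.2e-06). Here too the bone marrow signal was dim, and with 50 added to each intensity the difference was -1.06 and still passed.

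Lymphoid markers ran partly with these 3 receptors. Of 9 measured B cell markers 5 were lower and 2 (Vpreb1 and Rag1) higher in bone marrow (sums of 1770 to 1873 in bone marrow, 3387 to 3870 in spleen). Of 10 measured T and NK cell markers 5 were lower and none higher (1308 to 1789 in bone marrow, 3138 to 3467 in spleen). In each of these sums 1 gene was by far the brightest in spleen. Cd22 had 314 to 455 in bone marrow and 1651 to 2106 in spleen, and Klrd1 473 to 859 and 1647 to 2173. Sums without them were not taken. Of 7 measured plasmacytoid dendritic cell markers 2 were lower and 1 higher, with a median log2 fold change of -0.20 and sums of 3631 to 4720 in bone marrow and 2988 to 3509 in spleen. The sum turned with 1 gene, the called-higher Bst2, without which it was 1578 to 1684 in bone marrow and 1613 to 1872 in spleen, lower in bone marrow in 4 of 4 mice. The part of these cells in the levels of Ccr6, Ccr7 and Ccr9 was not tested.

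Cxcr4, the receptor of Cxcl12 that retains blood-forming and immune cells in the marrow, was bright in both tissues. It stood at 5015, 3251, 4505 and 4099 in bone marrow, against 3850, 2351, 3573 and 3385 in spleen, and the groups overlapped through the low bone marrow value of mouse 2. The unpaired log2 fold change was 0.36 ± 0.16 (SE, 4 arrays per tissue, limma adjusted p = 0.158), with a 95% interval from 0.02 to 0.71. The 2 tissues came from the same animals, and the order of the mice was the same in both: mouse 1, then 3, 4 and 2. With the mouse as a replicate block the same difference had an SE of 0.09 and a limma adjusted p of 0.0145. Bone marrow was higher in 4 of 4 mice, by 1.21-fold to 1.38-fold. Without bone marrow replicate 2 the unpaired fit also passed, at a log2 fold change of 0.48 and an adjusted p of 0.0491. Among all genes 3.09% had the same order of the 4 mice in both tissues, and Cxcr4 was the 1 such gene of the 9.

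Cxcr3, the receptor of Cxcl9 and Cxcl10 on T cells, NK cells and plasmacytoid dendritic cells, did not pass the threshold. Its intensity was 536, 670, 546 and 791 in bone marrow, against 589, 611, 507 and 824 in spleen. Mouse 4 was highest and mouse 2 next in both. The log2 fold change was 0.01 ± 0.15 (SE, 4 arrays per tissue, limma adjusted p = 0.982). Its 95% interval, from -0.32 to 0.34, leaves room for a difference of that size either way, and the sign of the estimate changed between checks.

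**Figure D2:**
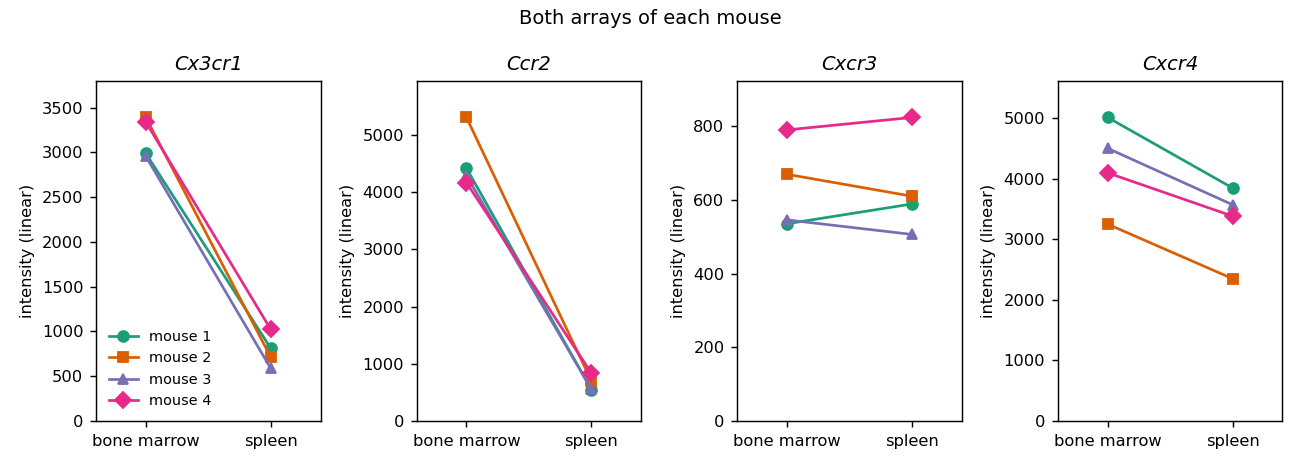
Intensity (linear scale from 0) of Cx3cr1, Ccr2, Cxcr3 and Cxcr4 in bone marrow and spleen, with a line joining both arrays of a mouse. Cx3cr1 and Ccr2 are higher in bone marrow in all 4 mice by a wide margin, the Cxcr4 lines keep the order of the mice, and the Cxcr3 lines run nearly level, with mouse 4 on top.

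Of the other chemokine receptors, 14 of a list of 15 had a probe set. Of these 1 was higher in bone marrow (Ccr1l1), 4 were lower (Xcr1, Ackr1, Ccrl2 and Cxcr5) and 9 did not pass, with a median log2 fold change of -0.06. Xcr1, which marks cross-presenting dendritic cells, had 108 to 179 in bone marrow and 976 to 2481 in spleen (a log2 change of -3.49 ± 0.24 SE, 4 arrays per tissue, limma adjusted p = 3.45e-07). Its fall was not shared by all dendritic cell markers, of which 4 were lower and 9 did not pass. Named after the values were seen, Clec9a (log2 fold change 0.11), Batf3 (-0.07) and Irf8 (-0.06) were among those that did not pass. The 4 lower ones were Zbtb46 (-1.28), Flt3 (-1.05), Dpp4 (-0.58) and Itgax (-0.40). That list covers dendritic cells in general, and no list of genes of cross-presenting cells was examined. Ackr1, an atypical receptor that binds chemokines without signalling, was lower by a log2 fold change of -1.43. Ccrl2, which presents chemerin, was lower at -1.08, and Cxcr5, the receptor of Cxcl13 on follicular B cells, at -0.84. Ccr1l1, a close relative of Ccr1, was higher at 0.76 ± 0.14, from a dim signal of 62.3 to 105 in bone marrow and 41.9 to 50.2 in spleen. Cross-hybridization between such relatives was not tested.

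Ccr3, the eotaxin receptor of eosinophils, had 179, 670, 180 and 152 in bone marrow, against 118, 100, 116 and 137 in spleen. Bone marrow replicate 2 stood far above the other 3. The log2 fold change was 1.03 ± 0.36 (SE, 4 arrays per tissue, limma adjusted p = 0.0679). Without that array it was 0.54 and passed, at an adjusted p of 0.00564. With the mouse as a replicate block it passed too (adjusted p = 0.0457). The remaining 8 (Ccr4, Ccr8, Ccr10, Cxcr1, Cxcr6, Ackr2, Ackr3 and Ackr4) had log2 fold changes from -0.14 to 0.04 and intensities of 26.4 to 123 on all arrays. At such low signal a lack of expression and a level below what the probe set resolves cannot be told apart.

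**Figure D3:**
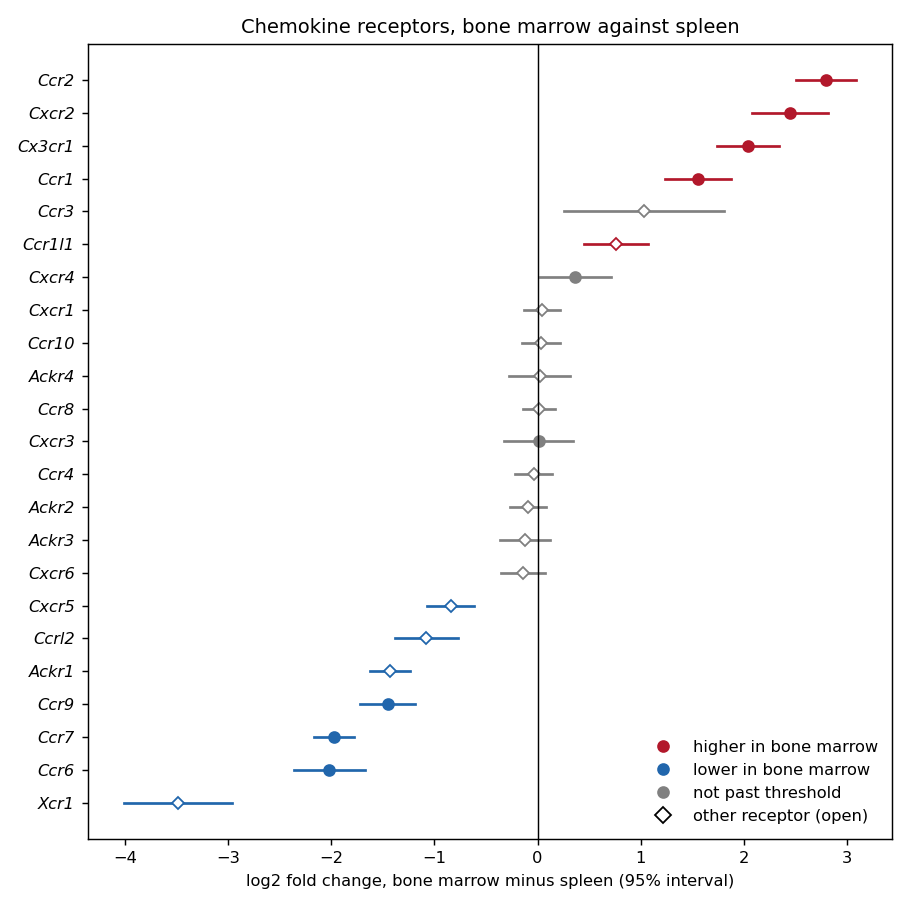
Log2 fold change, bone marrow minus spleen, of 23 chemokine receptors with the 95% interval from limma (filled circles for the 9 receptors described first, open diamonds for the other 14). Ccr2 at 2.80 and Xcr1 at -3.49 are the ends of the range, and a block of dim receptors sits at 0.

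Many of these genes are neighbours. In the RefSeq order of protein-coding genes on chromosome 9, Xcr1, Ccr1, Ccr1l1, Ccr3 and Ccr2 follow one another with no other protein-coding gene between them, and Cxcr6 and Ccr9 stand just before. Across this stretch Ccr9 was lower in bone marrow, Cxcr6 did not pass (-0.14), Xcr1 was lower, Ccr1 and Ccr1l1 were higher, Ccr3 did not pass in the unpaired fit and Ccr2 was higher. Xcr1 and Ccr1, adjacent genes, thus had log2 fold changes of -3.49 and 1.56. Cx3cr1 is next to Ccr8, which had 26.4 to 28.2 on all 8 arrays and a log2 fold change of 0.02. On chromosome 1 Cxcr2 is next to Cxcr1, whose log2 fold change was 0.04 ± 0.08 (SE, limma adjusted p = 0.844).

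**Figure D4:**
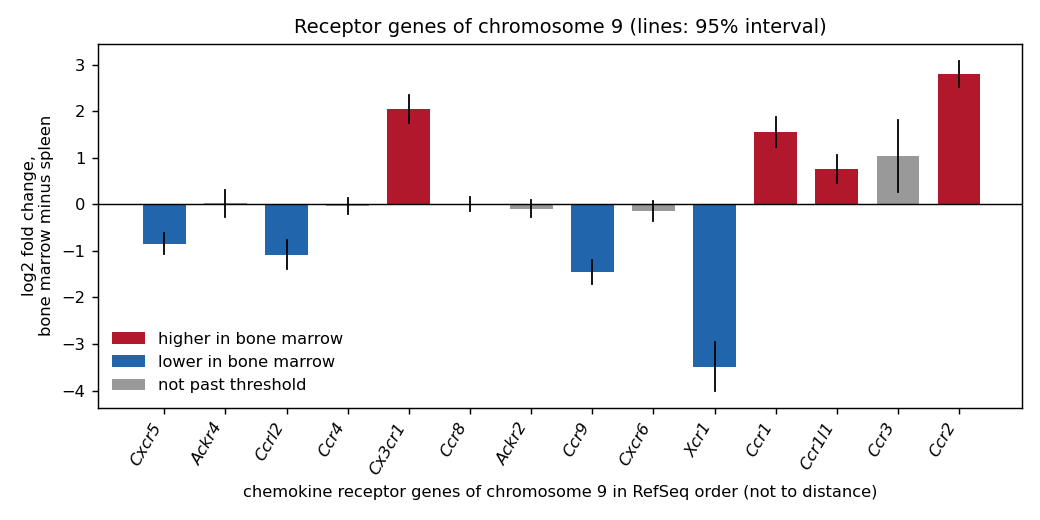
Log2 fold change, bone marrow minus spleen, of the 14 measured chemokine receptor genes of chromosome 9 in RefSeq order (bars from 0, lines the 95% interval, spacing not to distance). Lower genes at Ccr9 and Xcr1 are followed by higher genes at Ccr1, Ccr1l1 and Ccr2.

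The chemokines that these 9 receptors bind were measured in the same cells. Of 20 measured ligands 8 were higher in bone marrow, 1 was lower and 11 did not pass, with a median log2 fold change of 0.17. The largest rises were those of the Ccr1 ligands Ccl6 and Ccl9. Ccl6 stood at 6038, 5804, 5418 and 5106 in bone marrow, against 1471, 1051, 1271 and 1454 in spleen (a log2 change of 2.10 ± 0.11 SE, 4 arrays per tissue, limma adjusted p = 3.0e-08). Ccl9 was higher by 1.57 ± 0.14 on the log2 scale. Ccl5, which binds Ccr1 as well, was lower, with 419, 420, 446 and 623 in bone marrow, against 1066, 1061, 1152 and 1200 in spleen (-1.25 ± 0.12, limma adjusted p = 7.0e-06). The ligands of Ccr1 therefore did not share a direction.

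Ccl3 was higher by 0.91 ± 0.26 (SE, 4 arrays per tissue, limma adjusted p = 0.0252), a call that was lost without bone marrow replicate 4, spleen replicate 2 or spleen replicate 4 (adjusted p = 0.0721, 0.0562 and 0.0706) and on a log2(intensity + 50) scale (0.0723). Cxcl10, a ligand of Cxcr3, was 1.87-fold higher, while Cxcr3 itself did not pass. Of ligands named after their values were seen, Ccl2 (1.51-fold), Cxcl12 (1.46-fold), Cxcl2 (1.57-fold) and Ccl20 (1.22-fold) were also higher. Cx3cl1, the ligand of Cx3cr1, had 94.0 to 121 in bone marrow and 89.0 to 109 in spleen (log2 fold change 0.05, limma adjusted p = 0.863). Ppbp, a platelet-derived ligand of Cxcr2, was high on 1 array of each tissue, at 1233 in bone marrow replicate 3 and 1280 in spleen replicate 4, and between 99.6 and 160 on the others.

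Downstream of the receptors, 8 of 26 measured signalling and shutdown genes were higher in bone marrow and 5 lower, with a median log2 fold change of 0.12. The largest rises were those of Arrb1 and Grk5, whose products uncouple activated receptors from G proteins, followed by Pik3r6 and Plcb3. Arrb1 stood at 2186 to 2500 in bone marrow and 932 to 1047 in spleen (a log2 change of 1.21 ± 0.08 SE, limma adjusted p = 2.0e-07), and Grk5 at 767 to 952 in bone marrow and 337 to 439 in spleen (1.14 ± 0.10). The genes with the largest falls were Elmo1, a partner of the Rac activator Dock2 (-0.95 ± 0.08, limma adjusted p = 1.9e-06), and the G protein inhibitors Rgs18 (-0.64), Rgs2 (-0.59) and Rgs1 (-0.55). The G protein chain Gnai2, through which chemokine receptors signal, had 5652 to 6260 in bone marrow and 4911 to 5689 in spleen (0.14 ± 0.08, adjusted p = 0.32).

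Receptors of other attractants were on the same arrays. Of 10 measured, 5 were higher in bone marrow and 2 lower, with a median log2 fold change of 0.58. The higher ones named by rule were C3ar1, the complement C3a receptor (5.08 ± 0.14 SE, 4 arrays per tissue, limma adjusted p = 2.4e-10), Cmklr1, the chemerin receptor (2.34 ± 0.10), C5ar1, the C5a receptor (1.64 ± 0.16), and Ltb4r1, the leukotriene B4 receptor (1.53 ± 0.09). With 50 added to each intensity C3ar1 had 4.18 and Cmklr1 1.74, both still past the threshold. Gpr183, an oxysterol receptor that positions splenic dendritic cells, was lower (-0.91 ± 0.10, adjusted p = 2.6e-05), as was S1pr1, the sphingosine phosphate receptor for exit from lymphoid tissue (-0.90 ± 0.10). Chemerin thus had 1 receptor higher, Cmklr1, and its presenting receptor Ccrl2 lower.

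The genes whose pattern was most like that of Cx3cr1 were found by the root mean square difference of mean-centred log2 intensities over the 8 arrays, among 17220 genes. They were Ahnak (0.16), Irak3 (0.16), Hip1 (0.18), Clec12a (0.18) and Myof (0.20). For Ccr2 the nearest were Slamf9 (0.20) and Abca1 (0.20), for Ccr1 Ninj1 (0.15) and Clec4d (0.15), and for Cxcr2 Prtn3 (0.25) and Apoe (0.26). For Ccr7 they were Hmgn3 (0.11) and Zfp831 (0.11), for Ccr6 Septin1 (0.17) and Cdhr3 (0.19), and for Ccr9 Sdr39u1 (0.12) and Tlr3 (0.13). All of these differ between the tissues by nearly the same amount as their receptor, which dominates a measure over 2 groups.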

How the data were processed

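Per the file's values, the authors deposited 1 linear intensity per probe set and array (5.17 to 22479), and the submitters' processing notes name Affymetrix Expression Console 1.4. The background correction and normalization were not given in the sources used here. Array medians were 125 to 135. Arrays of a group correlated across probe sets at r of 0.984 to 0.993, and arrays of different groups at 0.973 to 0.979. No detection calls are given, arrays have no read depth, and the number of arrays limits the precision. The 2016 platform annotation gave exactly 1 symbol to 21789 of 35556 probe sets, several to 1621 and none to 12146. The brightest probe set of a gene was kept, which left 19938 genes. Log2 intensities were compared, with no filter on dim genes, by limma 3.58.1 in R 4.3.3, as bone marrow minus spleen, with Benjamini-Hochberg adjustment.

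Replicate numbers stand for mice, each of which gave both samples, per the labels' descriptions. Deviations of a mouse's 2 arrays from the means of their groups correlated across genes at 0.096, -0.088, -0.178 and -0.054 for mice 1 to 4. The pairing by mouse rests on those descriptions, and these correlations across genes do not show it. The labels state no test, and the fit without the block was kept as the main one, with the replicate block as an alternative that is given where it changes a call. P-values measure the spread among 4 mice, with sorting and amplification.

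The receptors and gene lists were chosen with earlier results of these data known. Named genes are the 9 receptors, all other measured chemokine receptors, up to 4 genes per direction of each further pathway list with the largest log2 fold change past the threshold, and the 5 genes most like Cx3cr1 and 2 most like each other receptor changed by at least 2-fold; predicted genes, microRNAs and smell receptors were left out of the last. Marker lists are given as counts and sums of intensity. Promoter letters are from RefSeq, GRCm38.p6. Alternatives were quantile normalization, median centring, leaving out the dimmest 40% of genes, averaging probe sets, an intensity trend, array weights, the replicate block, log2(intensity + 50) and each array left out.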

Additional observations from a re-analysis of the deposited data

Results flagged for a closer look

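A sample was singled out where its gap to the nearest of the other 3 arrays of its group exceeded the 95% critical value of Dixon's test. This was tested in 118 groups of 59 named genes, and chance gives such a gap in about 1 of 20 groups, or 5.9 of these 118. There were 5, no more than chance gives, and they are listed as values only. Ccr3 in bone marrow replicate 2 stood at 670, against 152 to 180 on the other bone marrow arrays. Ccr8 in spleen replicate 3 stood at 28.1, against 26.4 to 26.6. Ccl5 in bone marrow replicate 4 stood at 623, against 419 to 446. In spleen replicate 4 Ninj1 stood at 221, against 253 to 258, and Sdr39u1 at 427, against 329 to 334. None of the 9 receptors was among them.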

How the results depend on the processing

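For the 7 called receptors, 111 of 111 values under the alternatives kept their direction and their side of the threshold. Some of these checks could not change the direction. Each receptor had 1 probe set, so averaging probe sets left its log2 fold change as it was. The intensity trend, the replicate block and leaving out dim genes also kept the same log2 fold change and altered only its SE and p-value. The counts of receptors ran from 4 to 5 higher, with 3 lower, when an array was left out. Leaving out the dimmest 40% of genes kept 8 of the 9 receptors, without Ccr1. Cxcr4 passed with the replicate block (log2 fold change 0.36, adjusted p = 0.0145), and with an array left out it ran from 0.21 to 0.48 (adjusted p from 0.0491 to 0.405). The cause was not tested. The replicate block, with the mice paired, changed no other call among the 9, and called 3378 genes in place of 3681.

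Cxcr3 reversed to -0.01 (-0.0084) with quantile normalization and -0.0011 with array weights, and ran from -0.10 to 0.15 with an array left out. Signs also turned for values near 0: Ccr4 (0.0185 without bone marrow replicate 2, from -0.079 to 0.0185 with an array left out), Ccr8 (-0.0026 without the same array, to 0.0365), Ccr10 (-0.0092 without spleen replicate 3, to 0.0692) and Ackr4 (-0.0309 with array weights, from -0.1036 to 0.1256 with an array left out). Ccr3 passed with array weights (1.07, adjusted p = 0.0488), the replicate block (1.03) and without bone marrow replicate 4 (1.25).

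Higher members of the other chemokine receptors numbered 0 without the dimmest genes, which leaves 5 of 14, and 2 with array weights or the replicate block, and 1 to 2 with an array left out. Higher ligands numbered 5 without the dimmest genes, which leaves 12 of 20. Lower classical monocyte markers numbered 0 with median centring or log2(intensity + 50), and 0 to 1 with an array left out. Plasmacytoid markers were 2 higher with log2(intensity + 50) and 1 lower with median centring, and 1 to 2 lower with an array left out. Higher T and NK markers ran from 0 to 1 with an array left out, and higher B cell markers numbered 1 without the dimmest genes. In an alternative chosen after seeing the data, the log2 difference of the summed plasmacytoid markers reversed to -0.13 without Bst2 (0.35 with it), and that of the dendritic cell markers was -0.29 without H2-Ab1, H2-Aa and Cd74 (-0.09 with them).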

Other observations

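Bone marrow replicate 2 held other high genes besides Ccr3. Among all genes, ranked after the values were seen by how far this array stood above the highest of the other 3 bone marrow arrays, Ccr3 came second, 1.90 above on the log2 scale. Cd5l came first, at 484 in replicate 2 against 85.0 to 103 in the other bone marrow arrays. Next came Fcna (1580 against 228 to 442), Vcam1 (2128 against 265 to 599), Cmbl, Cbr2 and Slc40a1 (1421 against 184 to 481), then Epb41l3, Cd209f, Mpzl1, Gdpd1 and Ccl8. Cd5l, Vcam1 and the iron exporter Slc40a1 are known from tissue macrophages that clear red cells. The sum of the macrophage markers was highest in this array, at 32949, while that of the neutrophil markers was lowest, at 23490. Vcam1 is itself one of the macrophage markers, so that sum is not independent of the genes listed, and a sum without Vcam1 was not taken. Of the 9 receptors, Cx3cr1, Ccr1 and Ccr2 had their highest bone marrow value in this array, and Ccr6, Ccr7 and Cxcr4 their lowest. The lead over the next array was small for Cx3cr1 (3391 against 3340) and Ccr1 (203 against 201), and larger for Ccr2 (5307 against 4420). With 4 bone marrow arrays, each is the highest or lowest for many genes, and the share of all genes was not counted. None of these genes was tested for this pattern, and the 12 genes were chosen for it.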
